A study of Brassica rapa subsp. pekinensis with 2 samples.

Results

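The transcripts of the auxin pathway were compared between anthers and vegetative organs of Chinese cabbage (Brassica rapa subsp. pekinensis). Members were all annotated mRNA transcripts (class code = in the assembly) whose description held the words auxin, indole-3-acetic acid or YUCCA. The rule used annotation only and found 240 of 34213 mRNA transcripts, in a table of 50834 transcripts in all. A term with the word auxin also stood in the GO column of 230 of the 240.

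Ant and Mix were sampled, with 1 whole-transcriptome library each, both from the DH line ‘FT’. The ‘Ant’ library pooled anthers at different developmental stages, taken from flowering plants whose vernalization lasted 20 days at 4 °C. The ‘Mix’ library came from the root, stem and leaf of whole seedlings with 4 true leaves. The labels give the same vernalization text for both groups, while the methods of the study name it for the anther plants only, so organ, plant age and possibly vernalization cannot be told apart. There were no replicates, so no difference below has an error or a p-value, and each compares 2 libraries. In bulk tissue, fewer cells of a type and less RNA per cell cannot be told apart.

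The depth was 216371346 estimated counts for Ant and 190816341 for Mix. A stretch of chromosome A06 beginning at 15 Mb took 2.07% of the counts in Ant and 56.2% in Mix; no auxin member lies in it. With that stretch left out of the library totals, every FPKM would be multiplied by 1.02 in Ant and by 1.87 in Mix. Transcripts that reached an FPKM of 1 in each library had a median log2 ratio (Ant over Mix) of 0.54 as deposited and of -0.17 without the stretch. Ratios are therefore also given centred on that median. The labelled tissues were checked with marker lists. Pollen and tapetum markers (48 transcripts) summed to an FPKM of 9113 in Ant and 96.2 in Mix. Of them, 40 were higher in Ant and 8 in Mix, and 26 were at 0 in Mix. All 29 leaf markers were higher in Mix (19120 against 26.7), and 42 of 57 root markers were higher in Mix (244 against 289 summed).

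Auxin, chiefly indole-3-acetic acid (IAA), is made from tryptophan through an aminotransferase step and a YUCCA flavin monooxygenase step, and GH3 enzymes couple it to amino acids. PIN proteins carry it out of cells, and AUX1 and LAX proteins carry it in. Inside the nucleus it joins TIR1 or AFB F-box proteins to Aux/IAA repressors, which are then degraded, and this frees ARF transcription factors. GH3, Aux/IAA and SAUR genes are the classical families induced by auxin. In Arabidopsis, auxin made in the anther is needed for pollen development, filament elongation and the timing of anther opening.

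Small RNAs set the level of several members in Arabidopsis. There, miR160 cleaves ARF10, ARF16 and ARF17 transcripts, miR167 those of ARF6 and ARF8, and miR393 those of TIR1, AFB2 and AFB3. The mature sequences listed by the study for these miRNAs are shown because the ARF and receptor members below are grouped by them. Capitals mark the seed (bases 2 to 8), and the sequences are written with T.
bra-miR160a-5p: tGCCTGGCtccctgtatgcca
bra-miR167a: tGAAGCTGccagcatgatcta
ath-miR393a-5p: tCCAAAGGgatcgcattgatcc
The sets below follow the Arabidopsis names. The small RNA libraries and target sites in the cabbage transcripts were not analysed here.

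A member was counted when its FPKM (fragments scaled to transcript length and library total) was at least 1 in either library, which held for 122 of the 240 (50.8%, against 58.2% of all mRNA transcripts). Of these 122, 28 (23%) had a log2((FPKM Ant + 1)/(FPKM Mix + 1)) above 2, where 21.2% of the 19909 mRNA transcripts did. Another 16 (13.1%) lay below -2, against 9.48% of all mRNA transcripts. The share above was thus near the background. The median ratio of the members was -0.24, against 0.62 over all mRNA transcripts, with 58 members positive and 64 negative.

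The split between directions depended on the scaling. Centred on the median transcript, 21 members (17.2%) were above and 31 (25.4%) below, with a background of 15.2% and 14.7%. Higher members were then 40.4% of those past the cutoff, in place of 63.6%. Without the A06 stretch the counts were 24 and 37, with a background of 16.3% and 17.2%.

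Family medians ran from -2.05 to 2.22. By median ratio the order was GH3 (2.22), YUCCA (1.95), Aux/IAA (1.20), ABP1 (0.93), SAUR (-0.44), ARF (-0.72), PIN (-0.79), AFB (-1.0) and AUX1/LAX (-2.05). None of these 9 medians changed sign when the ratios were centred or the A06 stretch was left out. GH3 stayed at rank 1 under every setting tried. Among these, centring and leaving out families ranked below GH3 could not change its rank. With no replicates, it is not known which neighbours in this order would differ beyond the spread between libraries.

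**Figure D1:**
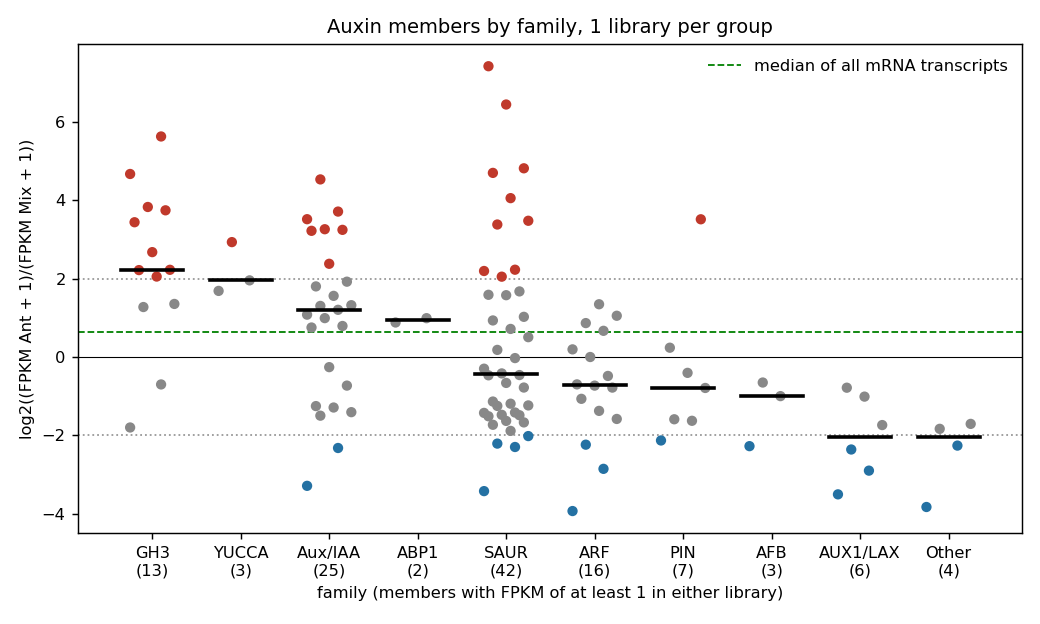
Log2 ratio of FPKM in Ant over Mix (pseudocount 1) for each member that passed the filter, by family, with the number of such members in brackets. Points are transcripts (red above 2, blue below -2), black bars are family medians, the dashed line is the median of all mRNA transcripts (0.62) and the dotted lines are the cutoffs; the GH3 bar is highest at 2.22, and no AUX1/LAX or AFB point lies above 0.

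Auxin synthesis was represented by 13 YUCCA members, of which only the 3 copies of YUCCA6 passed the filter. YUCCA2 and YUCCA6 act together in Arabidopsis stamens, where their joint loss blocks pollen formation. The YUCCA6 copy BraA02g041530.3C (chromosome A02, 28815300 to 28817656, 4 exons) had an FPKM of 9.74 in Ant and 0.410 in Mix, a log2 ratio of 2.93. BraA09g005830.3C had 5.24 and 0.611 (1.95), and BraA06g032880.3C had 4.01 and 0.558 (1.68). All 3 copies were higher in Ant, and only the copy on A02 passed the cutoff. Of all mRNA transcripts 58.2% passed the filter, and of those 62.2% had a positive ratio and 21.2% were above 2. The other 10 YUCCA members, copies of YUCCA1, 3, 4, 5, 8 and 9, stayed below 1 in both libraries. The strongest of them in Mix was YUCCA5 (BraA02g030930.3C), with 0.0890 in Ant and 0.868 in Mix. Of all 13, 7 were listed at 0 in Ant and 0 of 13 in Mix. The share at 0 over all mRNA transcripts was not counted.

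**Figure D2:**
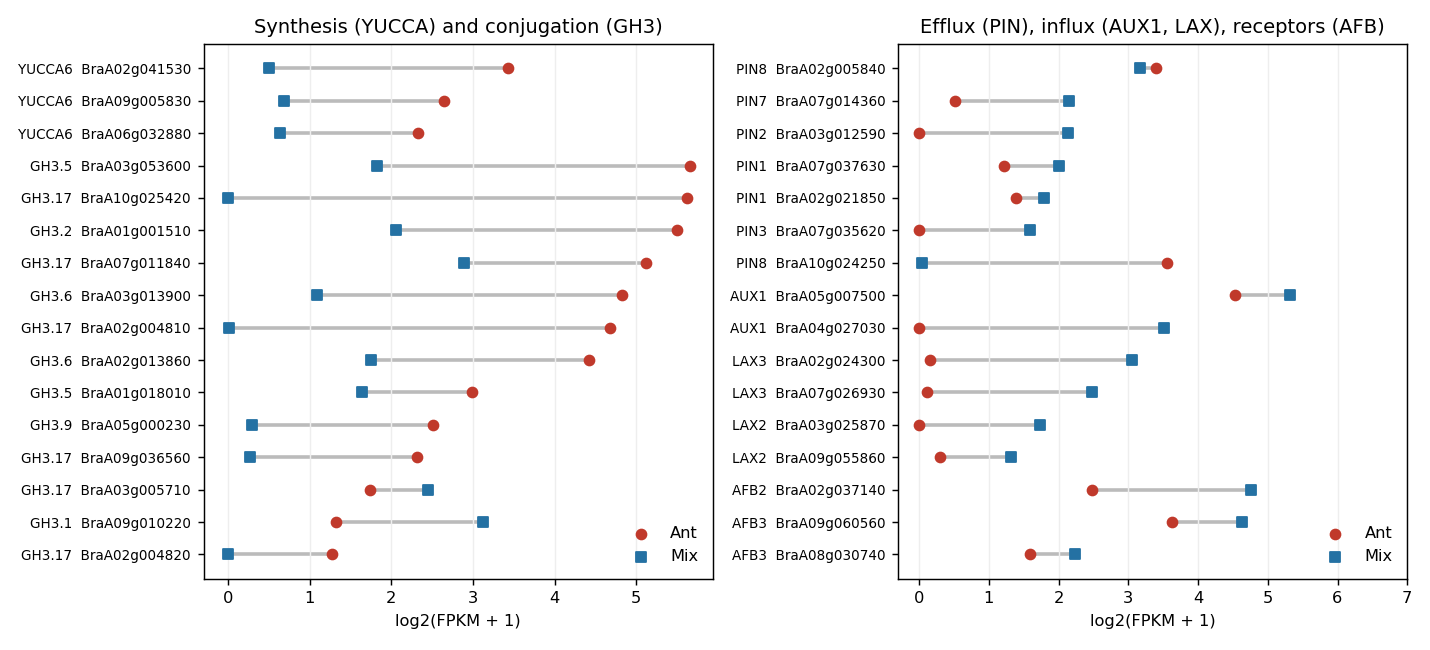
FPKM in Ant (red circles) and Mix (blue squares) as log2(FPKM + 1) for the members passing the filter, with YUCCA and GH3 on the left and PIN, AUX1, LAX and AFB on the right. Each line joins the 2 libraries of 1 transcript. Ant lies to the right of Mix for 14 of the 16 members on the left and for 2 of the 16 on the right.

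GH3 members take free IAA out of the active pool by joining it to amino acids. Of 16 members, 13 passed the filter, 9 were above 2 and 0 below -2 (21.2% and 9.48% of all mRNA transcripts). Their FPKM summed to 270.5 in Ant and 30.4 in Mix. The highest in Ant was GH3.5 (BraA03g053600.3C, chromosome A03, 27739546 to 27741846), with 49.3 against 2.55 and a log2 ratio of 3.83. A GH3.17 copy, BraA10g025420.3C, had 48.4 in Ant and was listed at 0 in Mix, at least 3320-fold higher when Mix is set to a floor of 6 estimated counts. Another GH3.17 copy, BraA02g004810.3C, had 24.7 and 0.00970, at least 1696-fold higher. Without the A06 stretch these bounds were 1812-fold and 926-fold. These copies were almost unseen in the vegetative library.

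The GH3 family did not move as a block. GH3.1 (BraA09g010220.3C) had the lowest ratio, with 1.51 in Ant and 7.74 in Mix (-1.80), and a GH3.17 copy on A03 (BraA03g005710.3C) had 2.35 and 4.45 (-0.70). Of the 8 GH3.17 copies, 6 passed the filter and ranged from -0.70 to 5.63. Centred on the median transcript, 6 GH3 members stayed above the cutoff and GH3.1 was below it, beside 15.2% and 14.7% of all mRNA transcripts.

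The PIN efflux carriers showed opposite patterns within the family. Of 12 members, 7 passed, 1 was above 2 and 1 below -2 (21.2% and 9.48% of all mRNA transcripts). Centred, or without the A06 stretch, 1 was above and 3 were below, and by gene sum 1 was above and 2 were below. The backgrounds were 15.2% and 14.7% centred, 16.3% and 17.2% without the stretch, and 23.9% and 8.02% by gene sum. PIN8, which sits in the endoplasmic reticulum of Arabidopsis pollen, had copies that differed. BraA10g024250.3C (chromosome A10, 16645481 to 16647554, 6 exons) had 10.8 in Ant and 0.0316 in Mix (log2 ratio 3.51), whereas BraA02g005840.3C (11 exons) had 9.58 and 7.99. The ratio of the latter was 0.23 as deposited and -0.30 when centred, so its direction depended on the scaling. Together they made PIN8 the most abundant PIN in Ant by reference transcripts. PIN2, known from the epidermis and cortex of Arabidopsis roots, was listed at 0 in Ant and at 3.39 in Mix (BraA03g012590.3C, -2.13), at least 253-fold lower. PIN7 (BraA07g014360.3C) had 0.427 and 3.42 (-1.63). PIN5, which sits in the same membrane system as PIN8, was near the floor in both, at 0 and 0.0580. As deposited, the reference transcripts of the 12 members summed to 23.8 in each library, and their gene sums, with assembled isoforms added, to 37.4 in Ant and 53.7 in Mix.

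All 6 influx carriers that passed the filter were lower in Ant, 3 of them below -2, where 9.48% of all mRNA transcripts were. AUX1 on A05 (BraA05g007500.3C, 3829113 to 3832498) was the strongest, with 22.2 in Ant and 38.9 in Mix (-0.79), and it made up 93.3% of the family's FPKM in Ant and 59.5% in Mix. For the AUX1-like copy on A04 (BraA04g027030.3C), the reference transcript was listed at 0 in Ant and at 10.4 in Mix (-3.51). That transcript was at least 589-fold lower. With its assembled isoform added, the gene had 2.50 in Ant and a ratio of -2.20, still below the cutoff. LAX3, which serves lateral root emergence in Arabidopsis, had 0.114 and 7.34 in its copy on A02 (BraA02g024300.3C, -2.90). The weaker of the LAX2 copies that passed (BraA09g055860.3C) had 0.237 and 1.5 (-1.01). By reference transcripts the family was thus close to a single transcript in Ant, while Mix held several. By gene sum the A05 copy had 25.8 of 29.9 in Ant and 45.1 of 76.2 in Mix. Below the filter, a LAX2 copy (BraA09g031800.3C) was higher in Ant, with 0.958 and 0.0682. A LAX1 copy there (BraA03g021190.3C) had 0.200 and 0.271. These copies below the filter were named after their values were seen.

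A pair of members assist transport. AXR4 (BraA01g026400.3C), an accessory protein needed in Arabidopsis to bring AUX1 to the plasma membrane, had 7.77 in Ant and 9.15 in Mix (-0.21). BIG (BraA05g041150.3C), a very large protein required for polar auxin transport, had 0.0833 and 0.115 for its reference transcript of 15282 nt. Its assembled isoform raised the gene to 11.5 and 9.48.

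The 3 AFB receptor members were all higher in Mix. AFB2 (BraA02g037140.3C, chromosome A02, 26029608 to 26031989) had 4.57 in Ant and 26.0 in Mix, with a ratio of -2.28. The AFB3-like copy BraA09g060560.3C had 11.4 and 23.7 (-1.0), and AFB3 BraA08g030740.3C had 2.0 and 3.72 (-0.65). With the assembled isoform of AFB2 added, that gene had 13.5 and 28.0 (-1.0) and no longer passed the cutoff. The ABP1 members went the other way. Auxin-binding protein 1, whose role in signalling is debated, had 3.40 and 1.22 for BraA09g001350.3C (0.99) and 10.7 and 5.38 for BraA03g028760.3C (0.88).

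The Aux/IAA repressors were the family with the highest summed level after SAUR. Of 44 members, 25 passed, 7 were above 2 and 2 below -2 (21.2% and 9.48% of all mRNA transcripts), with 17 positive and 8 negative. Their FPKM summed to 506.0 in Ant and 164 in Mix. A single member dominated both libraries: IAA9 (BraA06g029140.3C, chromosome A06, 20203745 to 20205192, 5 exons) had 247 in Ant and 70.1 in Mix (1.80), which was 48.7% and 42.7% of the family's sum. It was the highest of all 240 members in Ant.

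The largest Aux/IAA ratios belonged to IAA19 and IAA10. IAA19 (BraA01g036620.3C) had 29.9 in Ant and 0.337 in Mix (4.53), and IAA10 (BraA10g002610.3C) had 32.6 and 1.57 (3.71). The other 5 above the cutoff were copies of IAA1, IAA11, IAA18, IAA26 and IAA29, with ratios from 2.38 to 3.51. At the other end stood IAA7 and IAA17, the repressors altered in the auxin-resistant axr2 and axr3 mutants of Arabidopsis. IAA7 on A03 (BraA03g040670.3C) had 0.445 and 13.1 (-3.29), and IAA17 on A09 (BraA09g064990.3C) had 0.101 and 4.52 (-2.33). All 3 IAA17 copies were lower in Ant. The IAA7 copy on A05 (BraA05g024080.3C), chosen after its values were seen, had 29.5 and 7.05 (1.92). The A05 and A03 copies of IAA7 thus lay 5.21 apart on the log2 scale, the widest gap among names with 2 passing copies outside SAUR. Centred, 6 Aux/IAA members were above and 3 below, beside 15.2% and 14.7% of all mRNA transcripts.

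**Figure D3:**
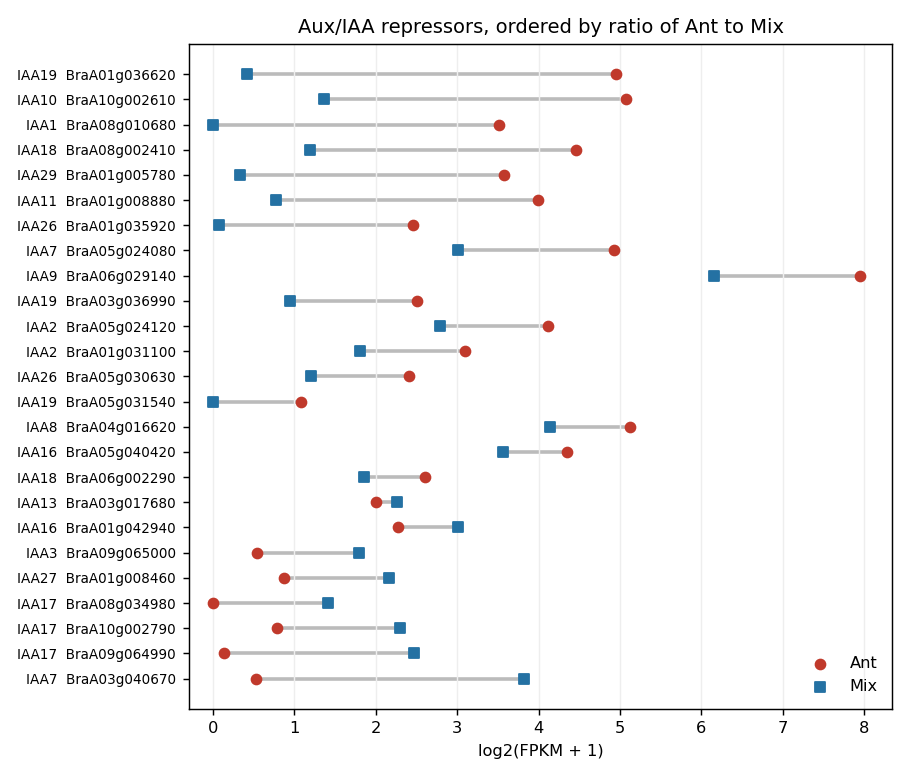
FPKM in Ant (red circles) and Mix (blue squares) as log2(FPKM + 1) for the 25 Aux/IAA members passing the filter, ordered from the highest ratio of Ant to Mix (IAA19, 4.53) to the lowest (IAA7, -3.29). Each line joins the 2 libraries of 1 transcript; the pair farthest to the right is IAA9, with FPKM of 247 and 70.1.

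By reference transcripts alone, the ARF factors leaned to Mix. Of 27 members, 16 passed, 0 were above 2 and 3 below -2, and their FPKM summed to 41.2 in Ant and 77.1 in Mix. Over all mRNA transcripts 21.2% were above and 9.48% below. ARF2, a repressor linked to organ size and senescence in Arabidopsis, had 0.0665 and 15.3 in BraA06g025480.3C (-3.93). The ARF2-3 copy on A09 (BraA09g007140.3C), in contrast, had 10.8 and 9.33. Its ratio was 0.19 as deposited and -0.35 when centred. ARF18 on A04 (BraA04g000990.3C) had 0.757 and 11.7 (-2.86), and ARF18-1 (BraA09g051330.3C), annotated with a single exon of 948 nt, had 4.24 and 1.53 (1.05).

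The picture for ARF changed when assembled isoforms were added. StringTie isoforms joined to a reference gene by a common splice junction (class j) existed for 14 of the 27 ARF members. With their FPKM added to the reference transcript, 24 ARF genes passed, 2 were above and 1 was below. The sums as deposited were 151 in Ant and 129 in Mix. With the A06 stretch left out of the library totals, Mix would have the larger sum. The median ratio by gene sum was still negative, at -0.30, against 0.80 over all genes. For gene sums the background was 23.9% above and 8.02% below. The reference transcript therefore missed most of the ARF signal in Ant. Isoforms that cover separate parts of 1 gene were each added, so gene sums can overstate levels.

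ARF5 changed most, and was chosen for description after its values were seen. ARF5, also known as MONOPTEROS, activates transcription and is needed for vascular and floral primordium formation in Arabidopsis. Its reference transcript on A07 (BraA07g016200.3C) had 0.203 and 0.000638, below the filter. With 3 isoforms the gene had 43.6 in Ant and 1.26 in Mix, a ratio of 4.30. The copy on A06 (BraA06g015450.3C) went from 0.0152 and 0.0212 to 12.3 and 1.17 (2.61). Both ARF5 genes thus became the 2 ARF genes above the cutoff. ARF2 on A06 lost its call, with 15.1 and 19.9 (-0.38) in place of the 230-fold gap of the reference transcript. ARF1 (BraA01g027750.3C), seen only after the fact as well, went from 0.0583 and 4.00 (-2.24) to 12.4 and 7.10 (0.73).

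**Figure D4:**
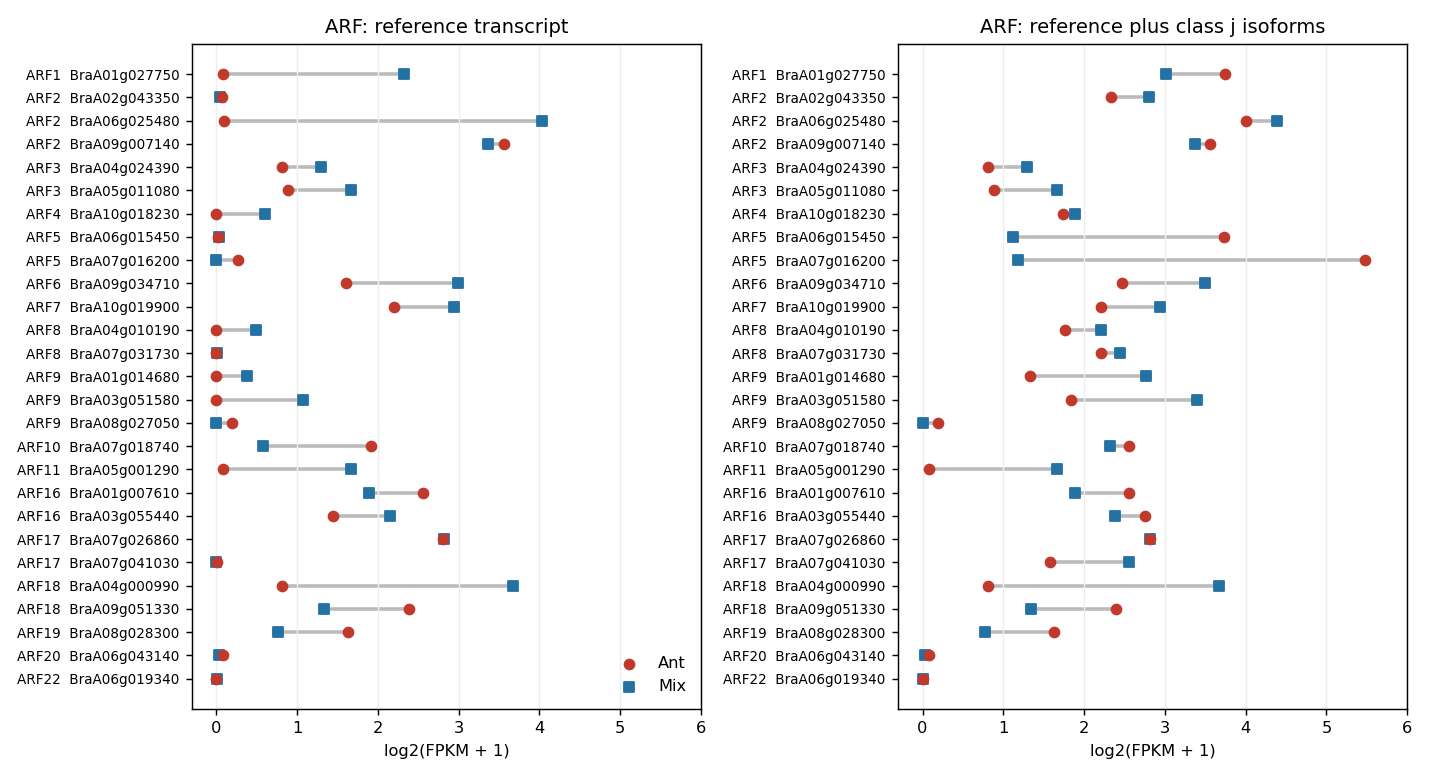
FPKM in Ant (red circles) and Mix (blue squares) as log2(FPKM + 1) for all 27 ARF members, from the reference transcript alone (left) and with class j isoforms of the same gene added (right). ARF5 on A07 moves from near 0 in both libraries to 43.6 in Ant and 1.26 in Mix, and the ARF2 gap on A06 closes to 15.1 and 19.9.

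The targets of the 3 miRNAs in Arabidopsis were then followed by gene sums. The miR160 set (ARF10, ARF16 and ARF17, 5 members) summed to 23.5 in Ant and 21.8 in Mix, with ratios from -0.97 to 0.67. ARF17, which is needed for callose deposition and pollen wall patterning in Arabidopsis, had 6.02 and 6.04 in BraA07g026860.3C, a ratio of -0.003. Its other copy, BraA07g041030.3C, had 2.0 and 4.88 by gene sum (-0.97). No member of this set passed the cutoff.

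The miR167 set (ARF6 and ARF8, 3 members), which in Arabidopsis acts in filament elongation and anther opening, summed to 10.6 in Ant and 18.4 in Mix. ARF6 (BraA09g034710.3C) had 2.05 and 6.94 as a reference transcript (-1.38) and 4.55 and 10.3 as a gene (-1.03). The ARF8 reference transcripts BraA04g010190.3C and BraA07g031730.3C were both listed at 0 in Ant. By gene sum they had 2.40 and 3.64 in Ant against 3.63 and 4.42 in Mix. All 3 genes were lower in Ant, with ratios from -1.03 to -0.22. The miR393 set within the rule, AFB2 and AFB3, summed to 26.9 and 55.5 by gene. The ARF2, ARF3 and ARF4 members, which tasiR-ARF targets in Arabidopsis, summed to 33.9 and 41.6, with 0 of 6 past the cutoff.

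The SAUR members form the largest family. They encode small proteins, several of which promote cell expansion in Arabidopsis by blocking phosphatases that restrain the plasma membrane proton pump. Of 108 members, 104 had a single exon and 42 passed the filter. Among these, 10 were above 2 and 4 below -2, shares near those of all mRNA transcripts (21.2% and 9.48%). Their FPKM summed to 645 in Ant and 236 in Mix, although 34 members were listed at 0 in Ant and 12 in Mix. The family was thus high in sum and sparse in members.

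A few SAUR transcripts carried the sum. The 5 strongest took 72.9% of the family's FPKM in Ant and 61.7% in Mix, and 3 of them were shared between the libraries. The highest in Ant was auxin-induced protein X15-like (BraA05g027060.3C, chromosome A05, 20305203 to 20305556), with 181 in Ant and 0.0622 in Mix, at least 2460-fold higher. SAUR36-like (BraA03g027900.3C) had 88.9 and 0.0348, at least 1703-fold higher. The highest in Mix was SAUR32-like (BraA10g011930.3C), with 58.9 and 72.8 (-0.30). The lowest ratios belonged to SAUR72 on A05 (BraA05g034250.3C), with 0.756 and 17.9 (-3.43), and to auxin-induced protein 6B (BraA02g022940.3C), listed at 0 in Ant and at 3.92 in Mix (-2.30). The strong SAUR transcripts were thus either near absent in Mix or shared, and the strongest of those low in Ant reached 17.9. Under centring, 7 SAUR members were above and 11 below, beside 15.2% and 14.7% of all mRNA transcripts.

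SAUR members were also counted by position. With an array defined as at least 3 SAUR members with gaps of at most 50000 bases, 37 members lay in 6 arrays on A01, A02, A03, A08 (2 arrays) and A10. Of these 37, 9 (24.3%) passed the filter, and of the 71 outside, 33 (46.5%) did. Both shares lay under the 58.2% of all mRNA transcripts, and the difference between them was not tested. Inside arrays the highest FPKM was 22.7 in Ant and 2.17 in Mix, against 181 and 72.8 outside. The array members were mostly copies described as SAUR21 or auxin-induced protein 15A, whose reads may be split between near-identical copies. The array on A01 (1735253 to 1762721) held 6 members, of which 5 passed and 2 were above the cutoff. Neighbours within it differed. Its last member, SAUR72 (BraA01g003550.3C), had 22.7 and 1.13, and the one before it, an auxin-induced protein 15A (BraA01g003540.3C), had 0.108 and 2.17. These array members were chosen after their values were seen.

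**Figure D5:**
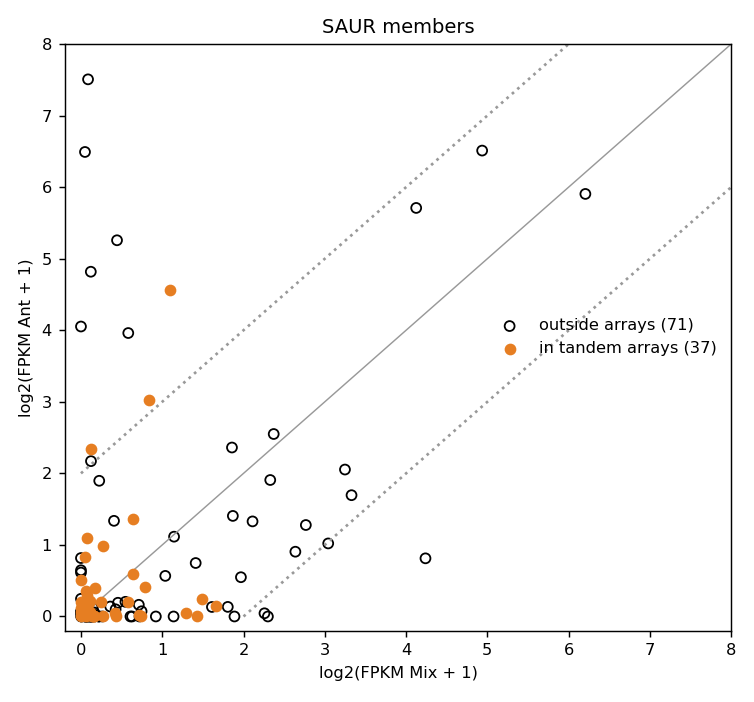
FPKM of the 108 SAUR members in Ant against Mix, both as log2(FPKM + 1), for the 37 members in tandem arrays (filled) and the 71 outside (open). The solid line marks equal levels and the dotted lines a log2 ratio of 2 and -2; the points at the upper left are X15-like (181 in Ant) and SAUR36-like (88.9), and array members stay at or below 22.7 in Ant and 2.17 in Mix.

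A further pair of SAUR genes appeared only with assembled isoforms and was noticed after the values were seen. SAUR71 on A06 (BraA06g022270.3C) had 0.530 in Ant and 0 in Mix as a reference transcript, and 80.9 and 0 as a gene, where its isoform of 932 nt stood in place of 480 nt. SAUR71-like on A10 (BraA10g019860.3C) went from 0.00457 and 0.00963 to 79.8 and 0.0264. Both would rank among the 5 strongest SAUR genes of Ant.

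The 5 remaining members are named for their response to auxin. All 4 that passed were lower in Ant. The auxin-repressed 12.5 kDa protein (BraA09g036360.3C), of a family tied to dormancy and growth arrest, had 1.34 and 32.3 (-3.83), and 9.32 and 128 by gene sum. AIR12-like, a cytochrome b protein of the plasma membrane, had 18.1 and 67.1 in BraA03g033240.3C (-1.84) and 2.41 and 15.4 in BraA01g041520.3C (-2.26). ARGOS, a regulator of organ size (BraA09g049790.3C), had 0.376 and 3.50 (-1.71). The auxin-induced protein-like BraA02g007400.3C was at or under the floor in both.

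Across families, copies with the same name often differed. Outside SAUR, 23 names had at least 2 copies passing the filter. In 13 of them some copies passed the cutoff and others did not, in 2 all copies passed it in the same direction, and in 8 none did. No name had copies past the cutoff in opposite directions. The median gap between the highest and lowest copy was 1.25 on the log2 scale, and 9 names had a gap over 2, or 7 by gene sums. IAA7, GH3.17 and PIN8 were among them. Over all mRNA transcripts 21.2% were above 2 and 9.48% below -2. Copies with the same name were not counted there, so it is not known whether such gaps are particular to auxin genes.

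Isoforms mattered beyond ARF. Of the 240 members, 34 had class j isoforms (42 in all), and these exceeded the reference transcript in Ant for 26 members and in Mix for 20. Adding them changed the place of 21 members relative to the filter or cutoff, of which 17 went from below the filter to above it, and turned the sign of the ratio for 9. By gene sum 139 members passed, 33 (23.7%) above and 14 (10.1%) below, with a median of -0.003 against 0.80 over 24106 genes. The background by gene sum was 23.9% above and 8.02% below. Over all mRNA transcripts too, more passed by gene sum (24106) than by reference transcript (19909). Class j isoforms and changed calls were not counted over all mRNA transcripts, so it is not known whether the counts for members are unusual. Among the members whose place changed was PIN3: BraA07g035620.3C went from 0 and 2.01 to 1.41 and 15.6 (-2.79), and BraA07g029730.3C from 0.0509 and 0.585 to 9.89 and 16.8. These PIN3 copies were named after their values were seen.

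Auxin pathway genes that lack the words of the rule were counted beside the members, from lists of 8 kinds. Of 45 transcripts, 28 passed, 3 were above 2 and 4 below -2, with a median of -0.15, where 21.2% of all mRNA transcripts were above and 9.48% below. Centred, 1 was above and 7 below, beside 15.2% and 14.7% of all mRNA transcripts. By gene sum 34 passed, 4 above and 3 below, with a background of 23.9% and 8.02%. Genes that moved with their isoforms were picked out after their values were seen. PIN-LIKES 1 (BraA06g016380.3C) went from 0.0899 and 0 to 6.29 and 0, and ABCB21 (BraA07g025030.3C), an auxin transporter, from a ratio of -1.09 to 1.77. PIN-LIKES 5-like (BraA09g010950.3C), of a carrier family in the endoplasmic reticulum, had 167 in Ant and 0.505 in Mix (6.81), above every PIN member. ILR1-like 6 (BraA10g007800.3C), annotated as an IAA-amino acid hydrolase, had 9.23 and 0.843 (2.47), and was not past the cutoff when centred.

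Of the TIR1 receptors, 2 of 3 were lower in Ant, as all 3 AFB members were. TIR1 (BraA09g052270.3C) had 1.32 and 15.1 (-2.79), and a TIR1-like copy (BraA04g000440.3C) had 2.38 and 17.8 (-2.48). A further TIR1-like protein (BraA03g026090.3C) had 9.03 and 6.77 (0.37). Thus 2 of 3 TIR1 and 1 of 3 AFB reference transcripts were below -2, and no receptor was above 2. By gene sum 2 of 3 TIR1 and 0 of 3 AFB genes were below -2. Over all mRNA transcripts 9.48% were below -2 and 21.2% above 2. For synthesis, 1 of 5 TAA1 or TAR aminotransferases passed the filter by reference transcript, TAR3-like (BraA09g031290.3C) with 0.149 and 1.10. By gene sum 2 of 5 passed, since a TAA1-like gene (BraA02g019880.3C) then had 5.44 in Ant and 2.24 in Mix (0.99). TOPLESS co-repressors, which Aux/IAA proteins recruit, had 8 of 10 passing and a median of 0.09. The only one past the cutoff, topless-related protein 1 (BraA07g025830.3C), had 0 and 7.97 as a reference transcript and 19.7 and 11.2 by gene sum.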

How the data were processed

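RNA of 1 Ant and 1 Mix library was used. The authors depleted ribosomal RNA, made stranded libraries, trimmed reads with Cutadapt, mapped them with Bowtie2 and TopHat2 (genome Brassica rapa v3.0) and assembled transcripts with StringTie. The submitters' processing notes name HISAT2, StringTie and TopHat; versions and the strand setting of counting are not given in the sources used here. The deposited FPKM values were used as given; the study names Ballgown and Cuffdiff in different places, so their source is uncertain. The deposited estimated counts scaled with FPKM and length, and were used for depth and a floor of 6 counts (an FPKM of 0.0259 in Ant and 0.0260 in Mix at 1 kb), which covers counting error only. Folds with 1 library no higher than this floor are lower bounds under the deposited scaling. Without the A06 stretch, bounds for members higher in Ant shrink, as from 3320 to 1812 for BraA10g025420.3C. Bounds for members lower in Ant grow, as from 589 to 1079 for the reference transcript of BraA04g027030.3C. The deposited circRNA junction read counts were looked up for members; the deposited SRPBM signal was not needed.

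Ratios were log2((FPKM Ant + 1)/(FPKM Mix + 1)), which understates change at low levels, with a filter of 1 and a cutoff of 2. The cutoff follows the study without its p-value. Levels of near-identical copies and of overlapping genes are uncertain. Named members were the whole family where it had at most 6, otherwise the highest in each library and the 2 largest and 2 smallest ratios, plus ARF6, ARF8, ARF17, YUCCA2, YUCCA6, PIN5, PIN8 and AFB; others are marked where named. Members and lists were chosen with earlier results of these data known. The ratio step was run on simulated data built from the same formula, so the return of the folds put in was fixed by construction. That run checks the code only and says nothing about low levels, scaling or isoforms. Python 3.11.15, pandas 2.3.3, numpy 2.4.6 and matplotlib 3.10.9 were used. RefSeq gene symbols could not be matched to the transcript names, so names are those of the deposited table.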

Additional observations from a re-analysis of the deposited data

How the results depend on the processing

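With 1 library per group no spread between libraries is known, and depth limits members near the floor. No paired analysis was possible because each group held 1 library and no ratio had a test. The count of members above the cutoff was 28 and moved to 45 only at a cutoff of 1; under the other settings it lay between 21 and 38. The count below, 16, was 31 when centred on the median transcript, 32 at equal FPKM sums, 37 without the A06 stretch, 37 and 40 with pseudocounts of 0.1 and 0.01, 44 at a cutoff of 1 and 10 with FPKM of at least 5. The median of -0.24 became -0.77 when centred, -0.98 at equal sums, -0.99 without the A06 stretch and 1.30 with FPKM of at least 5, where weaker members drop out. Families with more members above than below numbered 4, and 3 to 5 under the alternatives. Of the 50 named members, 2 lost the cutoff by gene sums (ARF2 on A06 and AFB2), 4 gained it when centred, 5 at equal sums, 5 without the A06 stretch, and 9 and 10 with the smaller pseudocounts. No named member past the cutoff changed sign; outside that rule, ARF1 did by gene sums (-2.24 and 0.73).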

Other observations

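A single circular RNA came from a member: the IAA8 gene BraA04g016620.3C gave a circle of 3 exons (chromosome A04, 12604963 to 12605548) with 0 junction reads in Ant and 1 in Mix. Assembled transcripts on the opposite strand lay over 2 members. MSTRG.11094.1, opposite ARF8 (BraA04g010190.3C), had an FPKM of 3.18 in Ant and 1.24 in Mix. MSTRG.12183.1, opposite the AUX1-like gene BraA04g027030.3C, had 1.77 and 0.0478. The reference transcript of that gene was listed at 0 in Ant, while its class j isoform had 2.50 there. Whether reads were counted by strand is not given in the sources used here, and sense and antisense levels cannot be told apart.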
